A study of Mus musculus with 1 sample.

Results

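The natural killer (NK) receptors described here are Klrk1, Klrd1, Klrc1, Klre1, Klrb1c, Klra8 and Ncr1, 7 of the 32285 genes of the count table. They form a list of gene names that was chosen with earlier results of these data known. Their UMIs, that is, distinct captured transcript molecules, were counted in Cd8 T cells, other T cells, NK-like cells, dendritic cell (DC)-like cells and other myeloid-like cells, and their joint detection was counted cell by cell. The cells came from subcutaneous tumors of MC38, a mouse colon carcinoma line, grown in female C57BL/6J mice aged 4 to 6 weeks. The library is labelled WT and was taken as the pool of control tumors carrying the shNTC hairpin, because the methods describe 1 control and 1 knockdown pool. Equal shares of 5 tumors had been mixed and sequenced as 1 library, so tumors cannot be told apart, there are no replicates and no test was possible. The knockdown pool was not analysed here.

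All 7 genes encode receptors that NK cells use to sense other cells. Inhibitory members read class I molecules on healthy cells, activating members read stress or foreign ligands and signal through small adaptor proteins, and the balance of both decides whether a cell is killed. Several are also used by cytotoxic T cells after activation. Klrk1 encodes NKG2D, an activating receptor that pairs with the adaptors Hcst and Tyrobp. Klrd1 encodes CD94, the partner chain of Klrc1, which encodes the inhibitory chain NKG2A; the pair reads the class I molecule Qa-1, encoded by H2-T23. Klre1 encodes a lectin-like receptor that pairs with Klri1 or Klri2, and Klrb1c, Klra8 and Ncr1 encode the activating receptors NK1.1, Ly49H and NKp46.

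In the GENCODE M21 annotation of GRCm38, 6 of the 7 genes lie within 1351.4 kb of chromosome 6, the NK gene complex. From left to right they are Klrb1c (chr6:128778485-128789215, minus strand), Klre1 (chr6:129577905-129585827, plus), Klrd1 (chr6:129591782-129598775, plus), Klrk1 (chr6:129610323-129623864, minus), Klrc1 (chr6:129666015-129678973, minus) and Klra8 (chr6:130115226-130129898, minus). Ncr1 lies on chromosome 7 (chr7:4337724-4345164, plus). All are protein-coding. In the last 500 bases of the transcripts, which the 3' chemistry reads, 21.9% of the 90-base windows of Klrc1 were identical to Klrc2 and 11.4% of those of Klrb1c to Gm44511 or Klrb1a. The exons of Gm44511 overlap Klrb1c on the same strand, so part of the counts of Klrc1 and Klrb1c cannot be placed with certainty. The other 5 genes shared no such window, although Klra8 has close relatives in the Ly49 family, and its counts remain uncertain where a read carries few differences.

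RefSeq start sites on GRCm38.p6 gave the 250 bases upstream of 6 receptors. Klre1, Klra8 and Ncr1 have 2 entries each, and the first was used. The stretches of Klre1 (chr6:129577963-129578212) and Klrb1c (chr6:128788642-128788891) lie inside the GENCODE bounds of these genes given above. The sequence TGTGGT, the core of Runx motifs, is in 5 of the 6 promoters, in Klrk1, Klrc1, Klre1, Klrb1c and Ncr1 and not in Klra8, against 14.0% of 32851 promoters of the same length. Of these, 4 are shown, 5′ to 3′ on the strand of the gene, with TGTGGT or its complement ACCACA in capitals. Klrk1 stands for the receptors found in several cell groups, Klrc1 for those of Cd8 T and NK-like cells, and Klra8 and Ncr1 for those with most of their UMIs in NK-like cells. They cover chr6:129623865-129624114, chr6:129678974-129679223, chr6:130129899-130130148 and chr7:4337465-4337714, and the matches begin 129 bases before the start of Klrk1, 87 before that of Klrc1 and 176 and 41 before that of Ncr1.
Klrk1: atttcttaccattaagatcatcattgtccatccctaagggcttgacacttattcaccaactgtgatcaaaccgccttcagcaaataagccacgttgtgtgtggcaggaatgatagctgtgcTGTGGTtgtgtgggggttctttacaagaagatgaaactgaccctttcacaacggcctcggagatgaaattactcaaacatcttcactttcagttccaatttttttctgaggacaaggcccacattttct
Klrc1: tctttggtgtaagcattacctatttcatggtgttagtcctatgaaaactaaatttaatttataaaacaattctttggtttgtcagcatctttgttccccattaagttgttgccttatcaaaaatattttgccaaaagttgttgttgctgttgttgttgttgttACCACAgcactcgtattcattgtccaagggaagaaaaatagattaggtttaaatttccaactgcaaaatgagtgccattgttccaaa
Klra8: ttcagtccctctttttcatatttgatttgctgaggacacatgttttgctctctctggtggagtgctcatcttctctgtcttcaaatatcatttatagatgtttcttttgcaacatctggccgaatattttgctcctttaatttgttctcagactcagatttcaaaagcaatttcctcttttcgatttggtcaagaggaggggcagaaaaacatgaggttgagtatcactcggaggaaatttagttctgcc
Ncr1: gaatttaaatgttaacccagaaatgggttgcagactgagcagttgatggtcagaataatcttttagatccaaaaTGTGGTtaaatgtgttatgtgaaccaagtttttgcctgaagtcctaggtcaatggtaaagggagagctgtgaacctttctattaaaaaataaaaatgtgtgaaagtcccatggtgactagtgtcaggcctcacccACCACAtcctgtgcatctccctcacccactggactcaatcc
TGTGGT was 1 of 12 sets of letters searched on both strands. AACCACA, which overlaps it, was in 3 of the 6 promoters against 4.40% of all, TATAAA in 2 against 12.4%, GGAA in 5 against 93.4% and TCACAC in 1 against 12.3%. The other 7 sets were in none of the 6, namely CAGGTG (17.2% of all promoters), TTCNNNGAA (7.02%), TGACTCA (4.46%), TATTTAA (4.18%), TTTCCGG (2.88%), CCGGAAGT (2.88%, overlapping the former) and AGGTGTGA (1.12%). A match in these letters is a description and not a binding site.

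The table held 5307 called cells with 511 to 231902 UMIs each and 106631000 UMIs in all. After filters, 4443 cells were kept, with a median of 10403 UMIs. The 7 receptors had 2191 UMIs in 524 of the kept cells, of which 35.6% were in Cd8 T cells, 26.2% in NK-like cells and 21.1% in other myeloid-like cells. The 170 cells of the T and NK-like cluster were split by marker genes that include no receptor. Cd8 T cells (56 cells, median 5799 UMIs) had a UMI of Cd3d, Cd3e, Cd3g or Trac and more Cd8a and Cd8b1 than Cd4. NK-like cells (13 cells, median 15876) had at most 1 UMI of those T cell genes, none of Cd8a, Cd8b1 or Cd4 and at least 3 of 8 NK genes. Other T cells (59 cells, median 3241) took the remaining cells with T cell genes, and 42 shallow lymphocytes (median 937.5 UMIs) went to no group. DC-like cells (37 cells, median 10610) and other myeloid-like cells (1529 cells, median 9108) were clusters named from marker lists. As a background, 1839 cells with high Shisal2b and Rhox5 (median 38299 UMIs), which should lack NK receptors, were counted in the same way.

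Levels are UMIs of a gene per 1000000 UMIs of a cell group (CPM), with exact 95% Poisson intervals. Shares of cells carry exact Clopper-Pearson intervals, and a count of 0 is given with the limit that 3 counts set. All of these cover counting error only, cells of 1 library are not replicates, and several of the levels rest on few cells. Summed over the 7 receptors, NK-like cells held 3109 CPM (2859 to 3374, 573 UMIs), Cd8 T cells 2133 (1986 to 2288, 780 UMIs), DC-like cells 487 (422 to 561, 196 UMIs), other T cells 369 (290.3 to 463, 75 UMIs) and other myeloid-like cells 30.4 (27.7 to 33.3, 462 UMIs). The Shisal2b- and Rhox5-high cells held 0.861 CPM (0.666 to 1.10, 66 UMIs). The level of NK-like cells was 1.46 times that of Cd8 T cells (1.31 to 1.63), and that of Cd8 T cells 5.78 times that of other T cells (4.56 to 7.43). Between DC-like and other T cells the ratio of other T to DC-like was 0.757 (0.572 to 0.993), the narrowest step in this order, and the place of DC-like cells above other T cells did not hold under other processing. With no mitochondrial limit DC-like cells held 147 CPM and other T cells 368, with at least 500 genes 149 and 367, and with doublets kept 159 and 369. When NK-like cells were allowed no UMI of the T cell genes, other T cells rose to 981 CPM, above the 487 of DC-like cells.

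**Figure D1:**
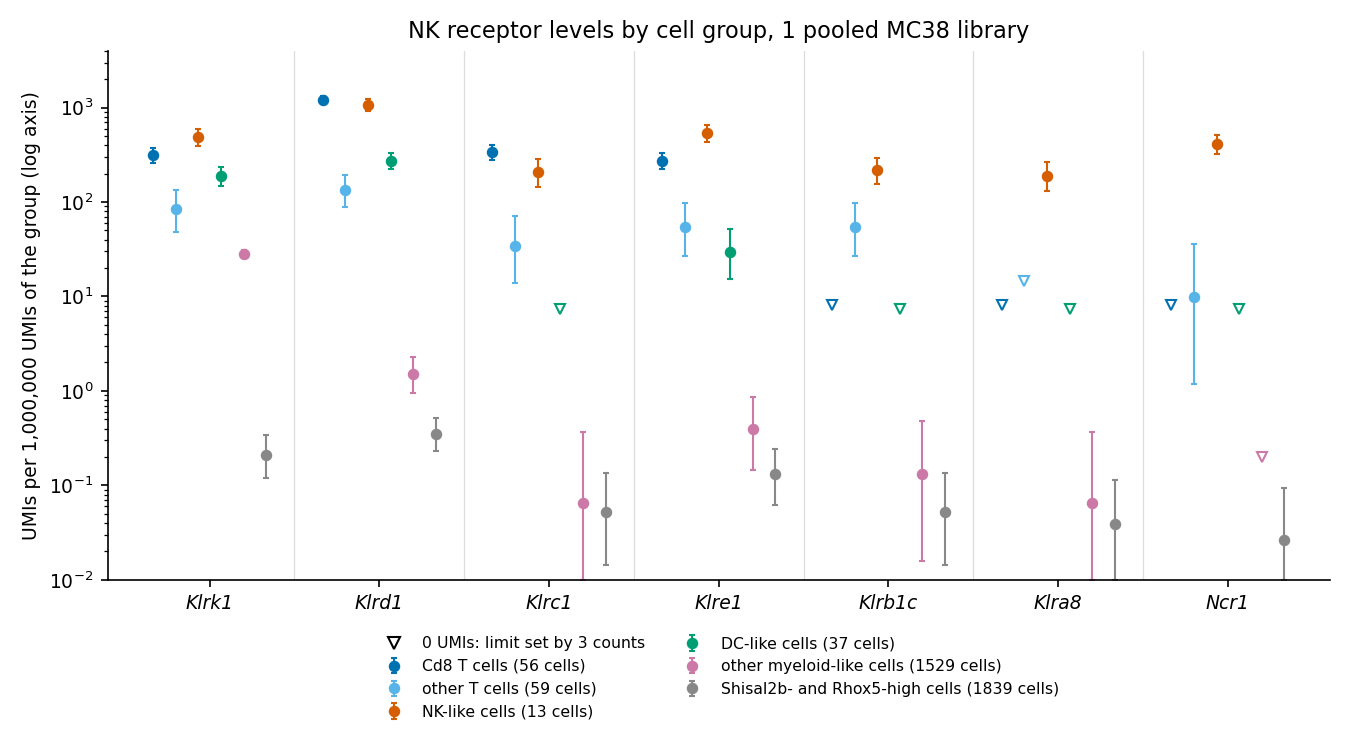
Level of each of the 7 NK receptors (UMIs per 1,000,000 UMIs of the group, log axis) in 5 immune cell groups and in Shisal2b- and Rhox5-high cells of the pooled MC38 library. Points are pooled levels, bars exact 95% Poisson intervals (drawn down to 0.01 at the lowest), and open triangles mark 0 UMIs at the limit of 3 counts; Klrk1 is above 28 in all 5 immune groups, while Klrb1c, Klra8 and Ncr1 are at 0 in Cd8 T and DC-like cells.

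Klrk1, the activating receptor NKG2D, was the only member with more than 28 CPM in all 5 immune groups. Its UMIs per cell ranged from 0 to 14 with a median of 6 in NK-like cells, from 0 to 10 with a median of 1 in Cd8 T cells and from 0 to 7 with a median of 2 in DC-like cells. Its level was 483 CPM (388 to 594) in NK-like, 315 (259.7 to 378) in Cd8 T, 186 (147 to 234) in DC-like, 83.7 (48.7 to 134) in other T and 28.2 (25.6 to 31.0) in other myeloid-like cells. With these cell groups, no neighbours in the order had a ratio whose interval included 1: NK-like to Cd8 T was 1.54 (1.15 to 2.04), Cd8 T to DC-like 1.69 (1.25 to 2.29), other T to DC-like 0.449 (0.248 to 0.767) and other T to other myeloid-like 2.97 (1.71 to 4.80). The step from DC-like to other T cells turned in 3 alternatives, at 75.8 against 86.0 CPM with no mitochondrial limit, 77.7 against 79.3 with at least 500 genes and 78.3 against 83.7 with doublets kept. A UMI of Klrk1 was found in 12 of 13 NK-like cells, in 37 of 56 Cd8 T cells (66.1%, 52.2% to 78.2%), in 26 of 37 DC-like cells (70.3%, 53.0% to 84.1%), in 8 of 59 other T cells and in 304 of 1529 other myeloid-like cells (19.9%, 17.9% to 22.0%). In Shisal2b- and Rhox5-high cells, which are deeper, it was found in 15 of 1839 (0.816%). With each cell thinned to 1000 UMIs, the shares were 58.3% of NK-like, 25.9% of Cd8 T, 18.9% of DC-like and 3.66% of other myeloid-like cells, and 0 of 1833 of the background cells.

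Klrd1, the CD94 chain, was carried by nearly all Cd8 T and NK-like cells and by most DC-like cells. The count per cell ran from 0 to 40 with a median of 5.5 in Cd8 T cells, from 0 to 43 with a median of 13 in NK-like cells and from 0 to 23 with a median of 1 in DC-like cells. Its level was 1206 CPM (1096 to 1324) in Cd8 T cells and 1069 (925 to 1229) in NK-like cells, and the ratio of NK-like to Cd8 T of 0.886 (0.745 to 1.05) did not separate them at this depth. DC-like cells followed with 271 CPM (223 to 327) and other T cells with 133 (87.6 to 193). That order also depended on the processing, since the level of DC-like cells ranged from 64.1 to 283 CPM over the alternatives and that of other T cells from 94.6 to 366. It was 64.1 CPM in DC-like and 129 in other T cells with no mitochondrial limit. Other myeloid-like cells had 1.51 CPM (0.959 to 2.27, 23 UMIs in 18 cells), against 0.352 (0.232 to 0.512) in the background cells. Klrd1 was found in 50 of 56 Cd8 T cells (89.3%, 78.1% to 96.0%), 12 of 13 NK-like cells and 27 of 37 DC-like cells (73.0%, 55.9% to 86.2%), and after thinning in 59.3%, 66.7% and 21.6%. Of the background cells, 1.09% had a UMI.

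Klrc1, the inhibitory NKG2A chain, was found mainly in Cd8 T and NK-like cells, at a higher pooled level in Cd8 T cells. It had 0 to 11 UMIs per cell in both groups, with a median of 2 in Cd8 T cells and of 0 in NK-like cells. Cd8 T cells held 339 CPM (282 to 404), with a UMI in 41 of 56 cells (73.2%, 59.7% to 84.2%). NK-like cells held 206 CPM (146 to 283), with 4 to 11 UMIs in each of the 5 cells that had any (38.5%, 13.9% to 68.4%). The ratio of NK-like to Cd8 T was 0.608 (0.411 to 0.881), and thinned shares were 25.9% of Cd8 T and 25.0% of NK-like cells. Other T cells held 34.4 CPM (13.9 to 71.0, 7 UMIs). DC-like cells had 0 UMIs, which allows up to 7.46 CPM, other myeloid-like cells 1 and the background cells 4. Klrc2, the activating relative that shares part of its 3' end, had 8 UMIs in Cd8 T and 6 in NK-like cells.

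Klre1, like Klrk1, was at a higher level in NK-like than in Cd8 T cells. It had 0 to 16 UMIs with a median of 4 per NK-like cell and 0 to 9 with a median of 1 per Cd8 T cell. Its level was 537 CPM (437 to 654) in NK-like and 274 (223 to 333) in Cd8 T cells, a ratio of 1.96 (1.47 to 2.62). Other T cells had 54.1 CPM (27.0 to 96.9) and DC-like cells 29.8 (15.4 to 52.1, 12 UMIs in 9 cells), and their ratio of 1.81 (0.725 to 4.49) did not separate them. The level in DC-like cells was 6.66 to 7.83 CPM in the 3 alternatives with a larger DC-like cluster. Other myeloid-like cells had 6 UMIs, 0.395 CPM, and their ratio to the background cells of 3.03 (0.904 to 9.19) included 1. Its partner chains were sparse. Klri1 had 2 UMIs in NK-like and 7 in DC-like cells, and Klri2 had 11 and 5.

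Klrb1c, Klra8 and Ncr1 had most of their UMIs in NK-like cells, 40 of 57, 35 of 39 and 75 of 82. In the 56 Cd8 T cells each had 0 UMIs, which allows up to 8.21 CPM, and a UMI in up to 6.38% of cells (upper bound of the interval). Ncr1, the NKp46 gene, had 75 UMIs in 11 of 13 NK-like cells (84.6%, 54.6% to 98.1%), 0 to 17 per cell with a median of 4, and 407 CPM (320.1 to 510.1). That was at least 49.6-fold higher than in Cd8 T cells, computed against 3 counts over the group. Outside NK-like cells it had 2 UMIs in 1 other T cell, 1 in the unassigned lymphocytes, 2 in the background cells and 2 in the remaining 868 kept cells, with 0 in DC-like and 0 in other myeloid-like cells (limit 0.197 CPM).

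Klrb1c, the NK1.1 gene of C57BL/6 mice, had 40 UMIs in 9 of 13 NK-like cells (69.2%, 38.6% to 90.9%), at 217 CPM (155 to 296) and at least 26.4-fold above Cd8 T cells. A single NK-like cell held 14 of the 40. Klrb1c also had 11 UMIs in 4 of 59 other T cells (54.1 CPM, 27.0 to 96.9), and the ratio of NK-like to other T was 4.01 (2.02 to 8.66). Klra8, the Ly49H gene, had 35 UMIs in 4 of 13 NK-like cells (30.8%, 9.09% to 61.4%), at 189.9 CPM (132 to 264). The 4 cells held 21, 9, 4 and 1 UMIs, so 1 cell held most of its UMIs. No other T cell had a UMI of Klra8, which allows up to 14.8 CPM.

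The share of receptors called was above that of all genes in some comparisons and not in others. The list was chosen with earlier results of these data known, so these shares are a description only. A level at least 2 times higher, in genes with at least 10 UMIs in both groups together, was counted as called. From Cd8 T to NK-like cells, 3 of 7 receptors were called higher (Klrb1c, Klra8 and Ncr1), against 7.23% of 5380 genes, and 0 of 7 were called higher in Cd8 T cells, against 18.2%. In Cd8 T over other T cells, 4 of 5 receptors were called (Klrk1, Klrd1, Klrc1 and Klre1), against 8.73% of genes. In DC-like over other myeloid-like cells, 3 of 3 were called (Klrk1, Klrd1 and Klre1), against 11.5%, and the same 3 of 3 in other myeloid-like over Shisal2b- and Rhox5-high cells, against 21.9%. Genes with fewer UMIs were not compared, which left out Klra8 and Ncr1 in the comparison with other T cells and Klrc1, Klrb1c, Klra8 and Ncr1 in the myeloid comparisons. Some members met the count only through the group where they are high. These were Klrb1c, Klra8 and Ncr1 in NK-like cells (40, 35 and 75 UMIs against 0 in Cd8 T cells). They also were Klrc1 in Cd8 T cells (124 against 7 in other T cells) and Klre1 in DC-like cells (12 against 6 in other myeloid-like cells).

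The label of the NK-like cells was checked against genes that the receptor list does not hold. Over the 13 cells, Cd3e and Cd3g had 0 UMIs, Cd3d 1 and Trac 2. Tyrobp had 416 UMIs in 12 cells, Fcer1g 443 in 12, Il2rb 128 in 13, Prf1 138 in 11, Txk 30 in 10, Xcl1 305 in 8, Gzma 445 in 7 and Eomes, which separates NK cells from type 1 innate lymphoid cells, 9 in 4. All of these genes, Eomes included, formed the gate and are no finding. Outside the gate, Itga1, a tissue residency and innate lymphoid marker, had 31 UMIs in 7 cells, 16 of them in the deepest cell. S1pr5, of mature circulating NK cells, had 5 in 2. Itga1 is 1 of 6 listed type 1 innate lymphoid genes, and another, Cxcr6, had only 2 UMIs in 1 cell and 1 in another. The 6 together had 450 CPM in NK-like and 741 in Cd8 T cells. These values do not separate NK cells from type 1 innate lymphoid cells. The shallowest cell, with 621 UMIs, had 1 UMI of Klra8 and of no other receptor. Granzyme genes outside the gate were high, with 2698 UMIs of Gzmc in 9 cells and 696 of Gzmb in 11.

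Cell by cell, the 12 NK-like cells with 4975 UMIs or more shared a common set and differed in the rest. All 12 had Klrk1, Klrd1 and Klre1, 11 had Ncr1 and 9 had Klrb1c. The deepest cell, with 33775 UMIs, carried 33 UMIs of Klrd1, 16 of Klre1, 8 of Klrc1, 5 of Ncr1, 3 of Klrk1 and 1 of Klrb1c. The next, with 20543 UMIs, had no Klrc1 and carried 43 of Klrd1, 16 of Klre1, 14 of Klrk1, 11 of Ncr1, 9 of Klrb1c and 9 of Klra8. The cell with the most Klra8, 21 UMIs in 17332, also had 7 of Klrc1 and none of Klrb1c. It was the only cell with both Klra8 and Klrc1. Of the 12 cells, 5 had Klrc1 and 3 had Klra8, too few to tell whether the 2 genes go apart. The other cell with Klra8 was the shallowest, with 621 UMIs. Klrb1c and Ncr1 were found together in 8 cells.

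**Figure D2:**
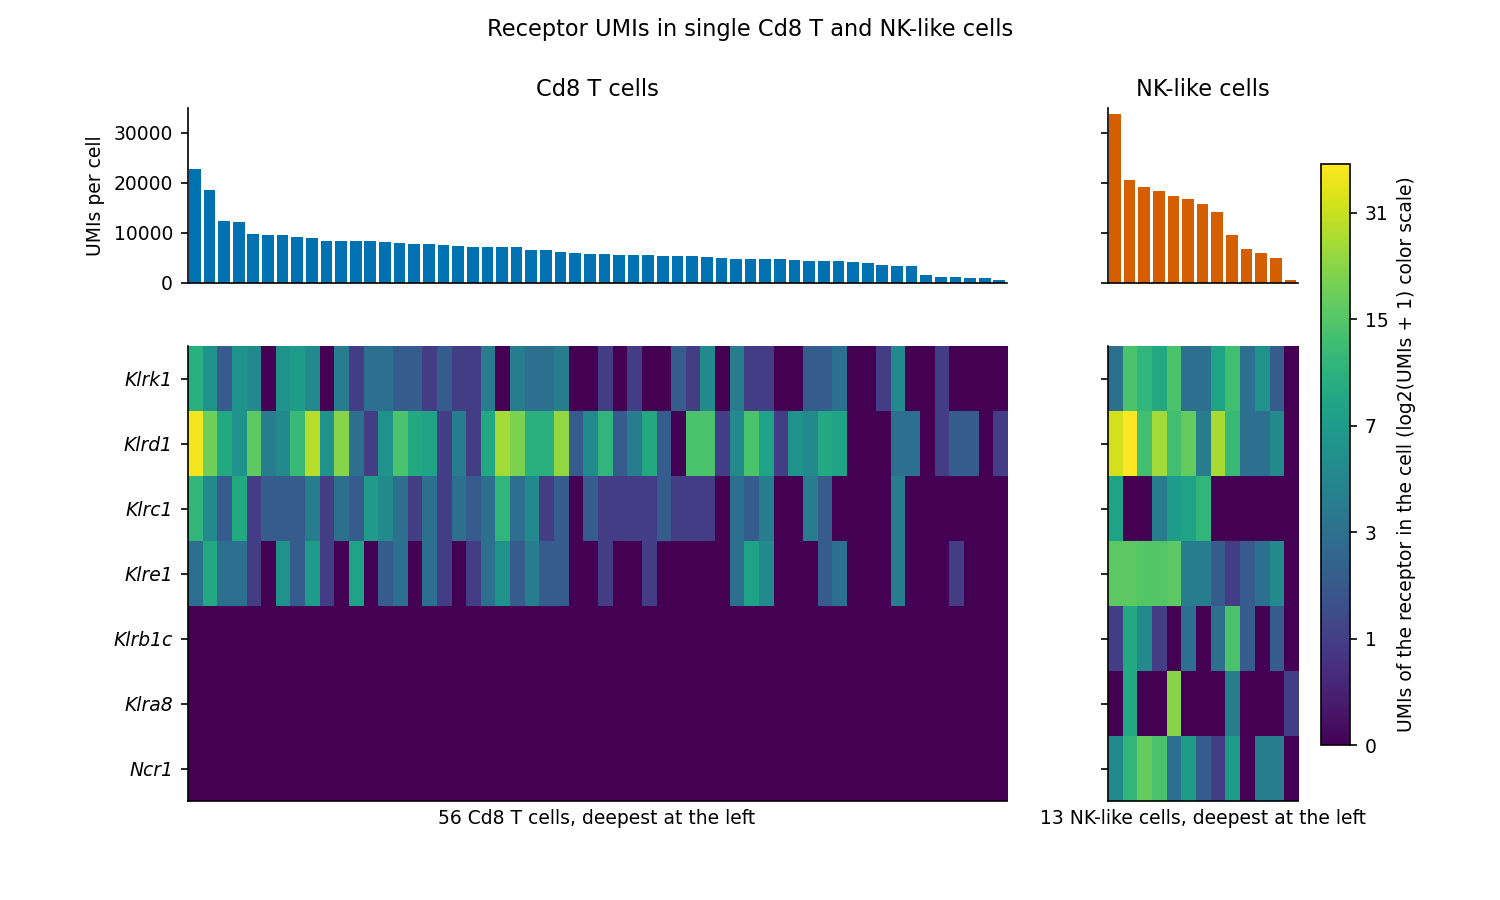
UMIs per cell (bars, top) and UMIs of each receptor (color, log2 scale of UMIs plus 1) in the 56 Cd8 T cells and the 13 NK-like cells, ordered by depth with the deepest at the left. Klrk1, Klrd1, Klrc1 and Klre1 fill the deeper Cd8 T cells, the rows of Klrb1c, Klra8 and Ncr1 are empty there, and Klrd1 reaches 43 UMIs in an NK-like cell.

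Most Cd8 T cells carried several receptors at once. All 4 of Klrk1, Klrd1, Klrc1 and Klre1 were found in 25 of 56 cells (44.6%), 3 receptors in 12, a pair in 7, 1 receptor in 8 and none in 4. Klrd1 alone was found in 7 cells, and Klrk1, Klrd1 and Klrc1 without Klre1 in 8. At least a pair of receptors was found in 44 of 56 Cd8 T cells (78.6%, 65.6% to 88.4%) and in 12 of 13 NK-like cells (92.3%, 64.0% to 99.8%), of which 6 had 6 receptors and 4 had 5. With each cell thinned to 1000 UMIs the shares were 24 of 54 Cd8 T cells (44.4%) and 8 of 12 NK-like cells (66.7%), so fewer receptors were seen per cell at the lower depth. In DC-like cells the share was 21 of 37 (56.8%, 39.5% to 72.9%) with all UMIs and 1 of 37 (2.70%) after thinning, so their joint detection was seen almost only at full depth. In other T cells the shares were 13.6% and 3.70%. Unthinned, the share was 0.523% in other myeloid-like cells and 0.163% in the background cells, and after thinning none of either had a pair.

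**Figure D3:**
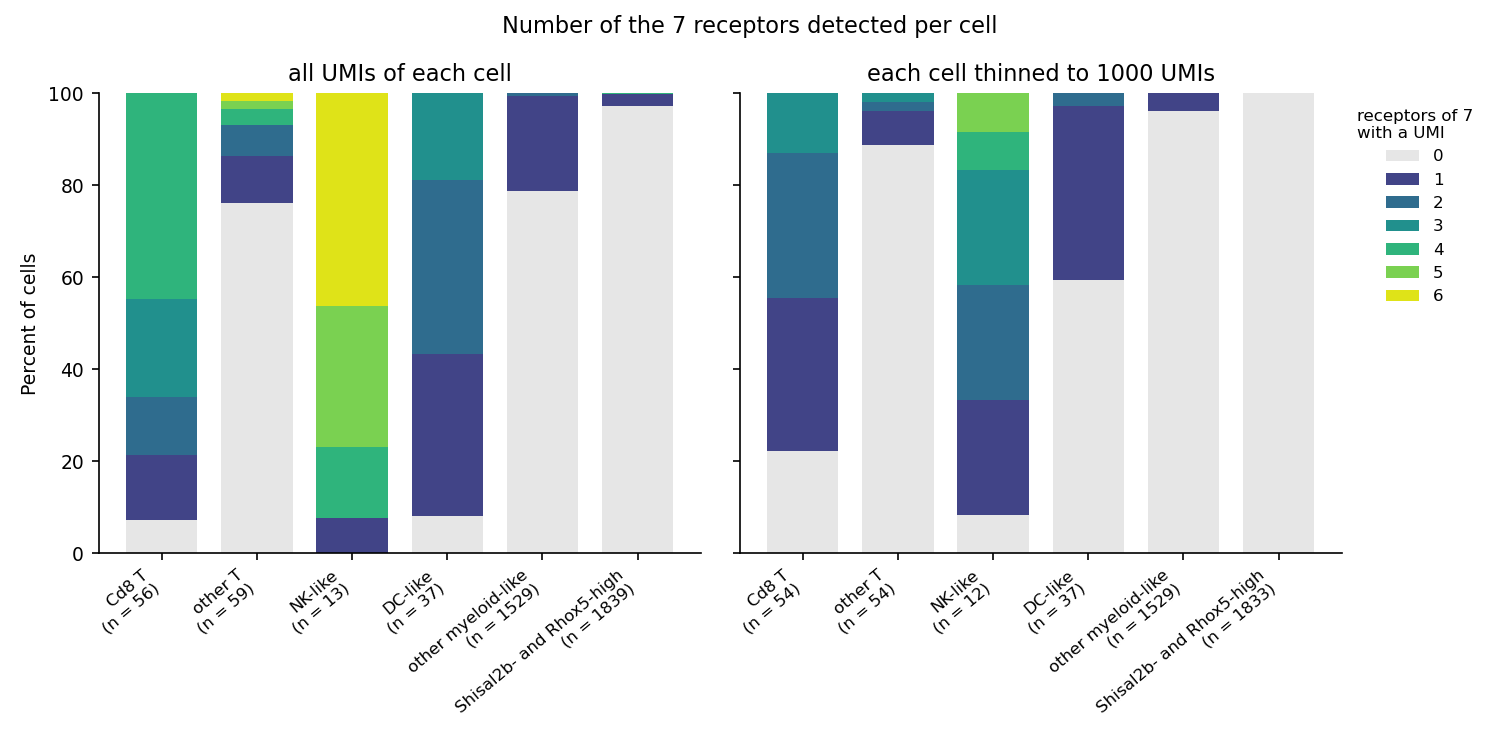
Percent of cells in which 0 to 6 of the 7 receptors had a UMI, with all UMIs (left) and with each cell thinned to 1000 UMIs (right, shallower cells left out), for the 5 immune groups and Shisal2b- and Rhox5-high cells. The share of Cd8 T cells with none is 4 of 56 on the left and 12 of 54 on the right, and after thinning 4 or more receptors are seen in 2 of 12 NK-like cells and in no cell of the other groups.

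Klrc1 and Klrd1, whose products form 1 heterodimer, were found together in nearly every cell with Klrc1. Of the 46 Cd8 T and NK-like cells with Klrc1, 45 also had Klrd1 (97.8%, 88.5% to 99.9%), against 17 of 23 without Klrc1 (73.9%, 51.6% to 89.8%). The cells with Klrc1 were deeper, with a median of 7527 UMIs against 4363. In Cd8 T cells thinned to 1000 UMIs, Klrd1 was found in 8 of 14 cells with Klrc1 (57.1%) and in 24 of 40 without (60%). Thinning left a UMI of Klrc1 in only 14 of the 41 cells that had one. The cells without thus included many that carried it, and this comparison cannot show the difference at equal depth. With Klrc1 taken from all UMIs, Klrd1 after thinning was in 27 of 41 cells with Klrc1 (65.9%, 49.4% to 79.9%). Without Klrc1 it was in 5 of 13 (38.5%, 13.9% to 68.4%), and these intervals overlap. The thinned shares of Klrk1 and Klrc1, and of Klre1 and Klrd1, carry the same limit. Klrc1 was found in 34 of 37 Cd8 T cells with Klrk1 (91.9%) and 7 of 19 without (36.8%), and after thinning in 5 of 14 (35.7%) and 9 of 40 (22.5%). For Klre1 and Klrd1 the shares were 30 of 30 cells with Klre1 against 20 of 26 without (76.9%), and after thinning 11 of 13 with Klre1 (84.6%) against 21 of 41 without (51.2%). In DC-like cells, Klrd1 was found in 19 of 26 cells with Klrk1 (73.1%) and in 8 of 11 without (72.7%).

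The 41 Cd8 T cells with a UMI of Klrc1 were set beside the 15 without, on levels, which depth enters less than shares of cells. The cells with Klrc1 had a median of 7259 UMIs and the others 3520, and the groups were formed from the counts, so the values are a description. Klrk1 was at 345 CPM against 108, a ratio of 3.20 (1.33 to 10.0), Klrd1 at 1297 against 582 (2.23, 1.51 to 3.42) and Klre1 at 301 against 86.2 (3.49, 1.32 to 13.1). Of the cytotoxic genes, Prf1 (perforin) was 2.46 times higher with Klrc1 (1.53 to 4.21), the cytokine gene Ifng 3.22 times (1.60 to 7.57) and Gzmb 1.49 times (1.11 to 2.04). Pdcd1, which encodes the checkpoint receptor PD-1, was at 2.37 times (1.26 to 5.03), whereas Lag3 (1.65, 0.955 to 3.09) and Tox (0.623, 0.268 to 1.68) had intervals that included 1. Gzmk, of early effector and memory cells, was lower at 0.189 times (0.0765 to 0.481), and so was the chemokine gene Ccl5 at 0.548 times (0.468 to 0.645). Of the naive and memory genes, Lef1 had 2 UMIs with Klrc1 and 4 without, S1pr1 1 and 3 and Tcf7 4 and 3. The 9 UMIs of Gzma in Cd8 T cells were all in 1 cell without Klrc1.

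Among the 59 other T cells, receptors sat in 14 cells and mostly in cells without Cd4. Other T cells held regulatory T cell genes, with 43 UMIs of Foxp3 in 18 cells, 122 of Ikzf2 and 409 of Tnfrsf4, and Cd4 was seen in 23 cells. The summed level was 610.0 CPM (474 to 773) in the 36 cells without a UMI of Cd4 and 76.3 (30.7 to 157) in the 23 with one, a ratio of 7.99 (3.68 to 20.6). Foxp3 was seen in cells with and without a UMI of Cd4, so this split does not separate the regulatory T cells. All 11 UMIs of Klrb1c were in 4 cells without Cd4. Their depths were 5328, 4688, 4498 and 3214 UMIs, they had 3, 1, 4 and 3 UMIs of Klrb1c, and each also had Klrk1, Klrd1 and Klre1. These 4 cells held most of the 68 receptor UMIs of the cells without Cd4, so the ratio rests largely on them. The cell with 4498 UMIs was the only other T cell with Ncr1, and it carried 7 UMIs of Tyrobp and 10 of Fcer1g beside 2 of Cd3g. Another cell with 2 UMIs of Klrd1 had 12 UMIs of Trdc, the constant gene of the gamma-delta T cell receptor. When NK-like cells were allowed no UMI of the T cell genes, NK-like cells with 1 such UMI moved to the other T cells, and the summed level there became 981 CPM. Klrg1, a lectin-like receptor of terminal effector and regulatory T cells, went the other way, with 46 UMIs in 21 other T cells (226 CPM) and 11 UMIs in 1 Cd8 T cell.

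The DC-like cells carried Klrk1 and Klrd1 at levels below those of Cd8 T cells and far above those of the other myeloid-like cells. The ratio to other myeloid-like cells was 6.61 for Klrk1 (5.10 to 8.46), 179 for Klrd1 (113 to 294) and 75.6 for Klre1 (26.3 to 246). Of the 37 cells, 12 had Klrk1 and Klrd1, 7 had Klrk1 alone, 7 had both with Klre1, 6 had Klrd1 alone, 2 had Klrd1 with Klre1 and 3 had none. Klrc1, Klrb1c, Klra8 and Ncr1 had 0 UMIs. The T cell genes had 1 UMI in these cells and Nkg7 0, and in the 36 cells free of them Klrk1 stood at 186 CPM (146 to 234) and Klrd1 at 276 (226 to 333). The DC label rested on 11 of 14 listed DC genes raised over the other myeloid-like cells, with Wdfy4 in 25 cells, Xcr1 in 10, H2-DMb2 in 30, Flt3 in 14 and Ccr7 in 4. Of the 7 macrophage genes 6 were detected, with 322 UMIs in all and a summed level of 801 CPM against 45921 in other myeloid-like cells, and C1qb and C1qc were raised over the cells outside the myeloid clusters. Of the 6 monocyte genes Plac8 was raised over the other myeloid-like cells, and their summed level was 2049 CPM against 528. The part of these genes in the receptor values was not tested. The cells were split by mature DC genes and by at least 2 of the type 1 DC genes Xcr1, Clec9a, Wdfy4, Itgae and Tlr3. Klrk1 was at 192 CPM (141 to 256) in 19 cells with type 1 DC genes. It was at 182 (73.3 to 376) in 3 mature cells and 176 (109 to 269) in 15 with neither. Klrd1 was at 287 (223 to 362), 26.1 (0.660 to 145, 1 UMI) and 318 (225 to 436) in the same order. The cell with the most Klrd1, 23 UMIs, was among the 19 and had no UMI of Xcr1. The 10 cells with Xcr1 had 0 to 3 UMIs of Klrd1 each, so the level of the 19 is not that of Xcr1 cells.

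Which cells were called DC-like depended on the processing. Without a mitochondrial limit, with at least 500 genes or with doublets kept, the cluster that met the DC list held 271, 263 and 252 cells, and the summed level of the receptors was 147, 149 and 159 CPM, below other T cells in each. Klrk1 then stood at 75.8 to 78.3 CPM and Klrd1 at 64.1 to 71.6. With a limit of 10%, 3000 variable genes or a lower clustering resolution, no cluster met the list. Where DC-like cells were instead picked cell by cell, from UMIs of at least 4 listed DC genes, 22 cells held 352 CPM, beside 369 in other T cells. In each setting that gave a value the level stayed above the 27.8 to 35.8 CPM of the other myeloid-like cells.

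In the 1529 other myeloid-like cells Klrk1 made up 429 of the 462 receptor UMIs. It was 135 times the level of the Shisal2b- and Rhox5-high cells (82.3 to 239), which are deeper, with a median of 38299 UMIs. The remaining 868 kept cells are shallower, with a median of 1026 UMIs. They held Klrk1 at 9.46 CPM (5.61 to 14.95, 18 UMIs in 18 cells), so the background level depends on the cells chosen. After thinning, 1.58% of them had a UMI, against 3.66% of other myeloid-like cells. What the counts in the remaining cells stem from was not tested. Of the 304 cells with Klrk1, 220 had 1 UMI, and the highest had 7. T cell genes or Nkg7 had a UMI in 14 of those 304 cells (4.61%) and in 43 of the 1225 others (3.51%), and in the 1472 cells free of them Klrk1 stood at 28.3 CPM (25.6 to 31.1). The cells with Klrk1 had a median of 10139.5 UMIs and those without 8782. Klrk1 and Klrd1 had 429 and 23 UMIs in other myeloid-like cells, 115 and 441 in Cd8 T cells and 89 and 197 in NK-like cells. What the Klrk1 counts in the other myeloid-like cells stem from was not tested.

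Klrk1 was unevenly spread over the 7 myeloid clusters. Its level was 42.6 CPM (33.1 to 54.0) in the 253 monocyte-like cells of cluster 3, 41.6 (35.7 to 48.3) in the 461 macrophage-like cells of cluster 0, with Serpina3g among its leading genes, and 36.2 (29.8 to 43.6) in the 221 macrophage-like cells of cluster 4, led by the mitotic gene Kif14. Cluster 1 (298 cells) had 21.3 CPM (16.2 to 27.5). Cluster 2 (275 macrophage-like cells with high Mmp12) had 4.38 (2.45 to 7.23), and the ratio of cluster 0 to cluster 2 was 9.50 (5.60 to 17.3). The level of cluster 2 was below the 9.46 CPM of the remaining 868 kept cells, with intervals that overlap. Cluster 6 (21 cells) had 0 UMIs, with a limit of 20.7 CPM. After thinning, Klrk1 was found in 6.32% of cluster 3, 4.77% of cluster 0, 3.62% of cluster 4, 2.35% of cluster 1 and 1.09% of cluster 2. Klrd1 had 1 to 9 UMIs in each of these clusters, at most 6.90 CPM, and its 9 UMIs in cluster 4 were in 4 cells.

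**Figure D4:**
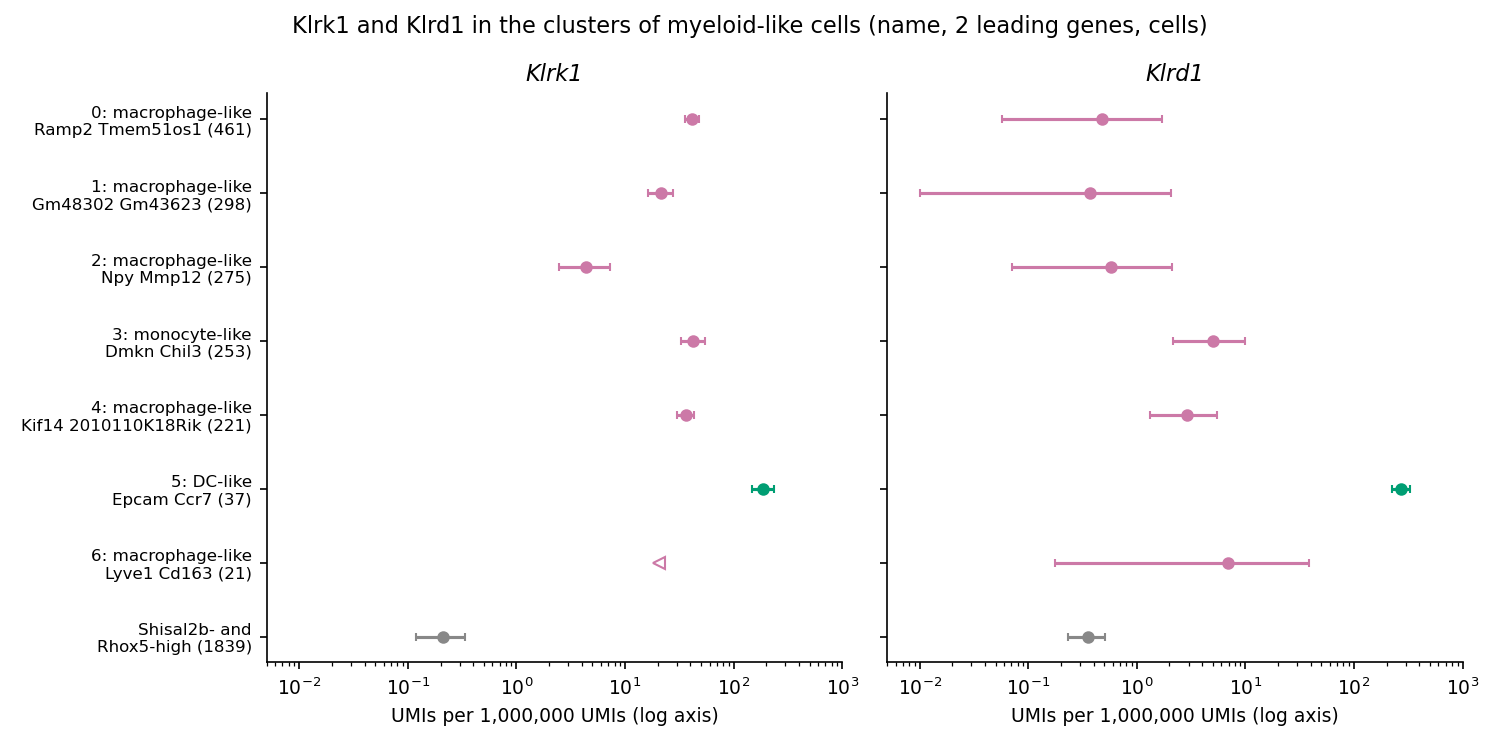
Level of Klrk1 (left) and Klrd1 (right), in UMIs per 1,000,000 UMIs on a log axis, in the 7 clusters of myeloid-like cells and in Shisal2b- and Rhox5-high cells. Points are pooled levels with exact 95% Poisson intervals and an open triangle marks 0 UMIs at the limit of 3 counts; cluster 5 is the DC-like cluster, at 186 for Klrk1 and 271 for Klrd1, while clusters 0, 3 and 4 hold Klrk1 with little Klrd1.

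The adaptors through which the activating receptors signal were distributed differently. Hcst, the partner of Klrk1 on T cells, was at 501 CPM in Cd8 T (431 to 579), 404 in other T (321 to 501) and 212 in NK-like cells (150 to 289), and at 22.4 in DC-like and 40.8 in other myeloid-like cells. Tyrobp, used by Klra8 and by Klrk1, had 10 UMIs in Cd8 T cells (27.4 CPM) and was at 2257 CPM in NK-like, 1422 in DC-like and 2495 in other myeloid-like cells, and was part of the NK gate. Fcer1g, the partner of Ncr1 and Klrb1c, was at 62.9 CPM in Cd8 T, 251 in other T and 2403 in NK-like cells. Of the 27 genes of the receptor family in the table, 13 were detected in Cd8 T, 17 in other T, 22 in NK-like, 10 in DC-like and 18 in other myeloid-like cells, and Klra13-ps, Klra14-ps and Klrh1 were not analysed here.

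Related Ly49 and Klrb1 receptors in NK-like cells included Klra4 (43 UMIs in 4 cells, 233 CPM), Klra7 (38 UMIs in 5 cells, 206 CPM), Klra5 (15 UMIs), Klra3 (12), Klra1 (8), Klra9 (7), Klra6 (5), Klrb1a (11) and Klrb1f (11 UMIs in 8 cells). Klra7 had 1 UMI in Cd8 T cells, and Klrb1f 0. Klrb1b was shared by NK-like cells (36 UMIs in 10 cells, 195 CPM) and DC-like cells (77 UMIs in 27 cells, 191 CPM), with 27.7 CPM in other myeloid-like cells and 5 UMIs in Cd8 T cells. Its ratio of DC-like to other myeloid-like of 6.92 (5.35 to 8.84) can be set beside 6.61 for Klrk1. Of the receptors of other families, Cd226 (118 CPM in Cd8 T, 109 in NK-like), Cd96 (30 and 16 UMIs), Cd160 (33 and 14 UMIs) and Slamf7 (30 and 22 UMIs) had ratios of NK-like to Cd8 T whose intervals included 1, and Cd244a was 2.64 times higher in NK-like cells (1.29 to 5.55).

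**Figure D5:**
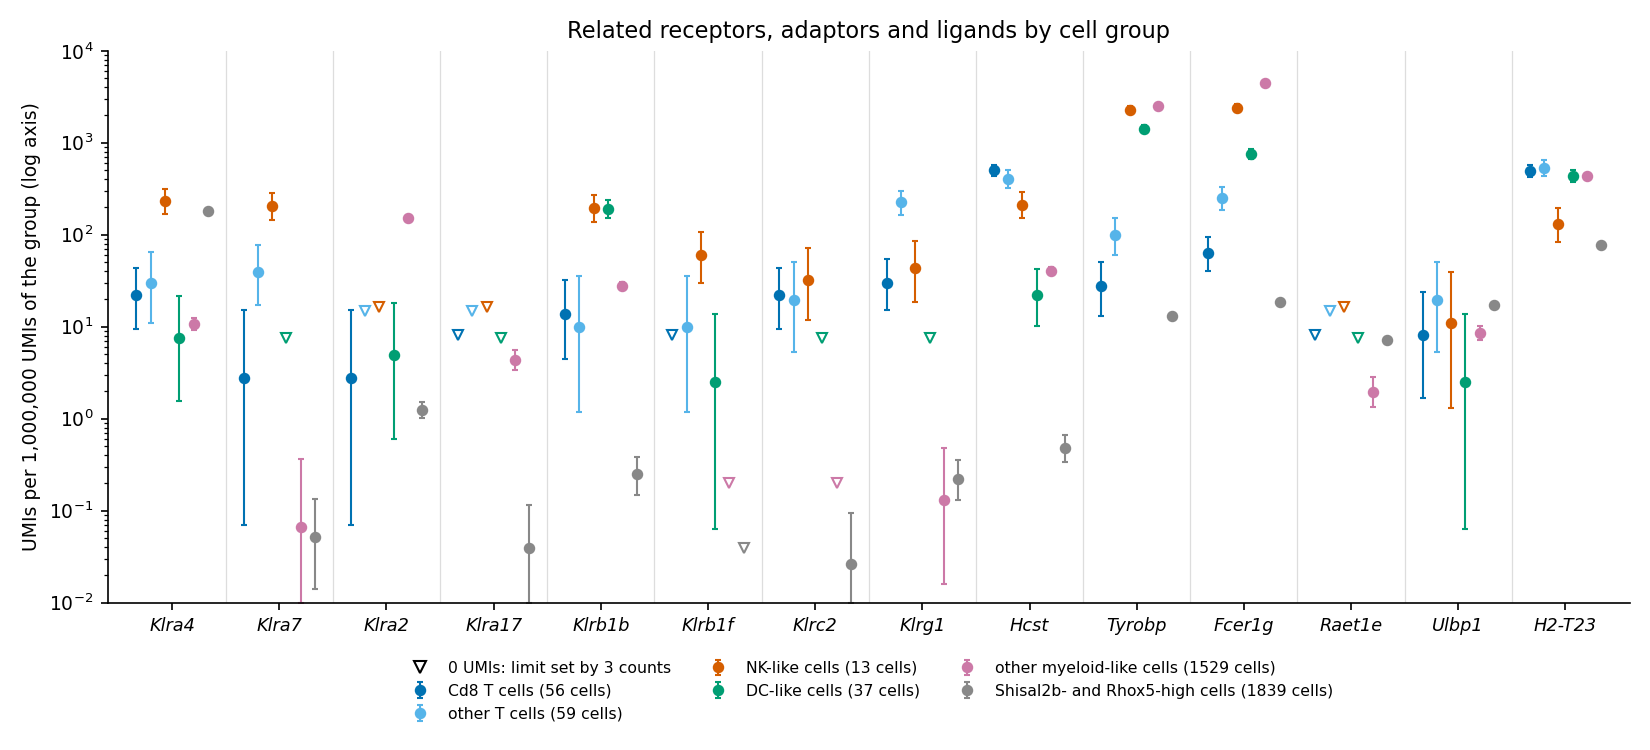
Level of related receptors, adaptors and ligands (UMIs per 1,000,000 UMIs of the group, log axis) in the same 6 cell groups. Points are pooled levels with exact 95% Poisson intervals (drawn down to 0.01 at the lowest) and open triangles mark 0 UMIs at the limit of 3 counts; Hcst is highest in T cells, Tyrobp and Fcer1g in NK-like and myeloid cells, and Klrb1b is at 195 in NK-like and 191 in DC-like cells.

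Over the 170 cells of the T and NK-like cluster, the genes whose log levels followed the summed receptors most closely among 6636 genes were Ms4a4b (Pearson r = 0.57), Nkg7 (0.57), Cd8b1 (0.54), Cst7 (0.53), Cd8a (0.51), Prf1 (0.51), Thy1 (0.49), Ctsw (0.46), Cxcr6 (0.44) and Gm156 (0.43). The depth of the cells itself had r = 0.42 with the sum, and all cells share 1 library. For single receptors, Klrk1 was closest to Klre1 (0.59) and Klrd1 (0.53), Klrd1 to Cst7 (0.63), Klrc1 to Klrd1 (0.58), Klre1 to Klrd1 (0.60), Klrb1c to Ncr1 (0.56) and Ncr1 to Tyrobp (0.62). Klra8 was closest to Atp1b1 (0.61), a value that rests on the few cells with Klra8.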

How the data were processed

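A 10x Genomics Chromium 3' kit (version 3.1) made 1 library from the mixed cells of 5 control MC38 tumors. The authors deposited raw UMI counts for each gene in each called cell. They were made with Cell Ranger, 5.0.1 by the file header and an earlier version by the methods, on GRCm38 (mm10) by the submitters' processing notes. No per-cell annotation was used. The receptors, gene lists and rules were chosen with earlier results of these data known.

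Cells with fewer than 200 genes or more than 20% mitochondrial UMIs were left out, and 197 putative doublets (nearest to simulated ones, 2 per cell, at 0.8% per 1000 cells) were removed. Clusters came from log counts per 10000 UMIs, with 2000 variable genes without the receptor family, 30 principal components, 20 neighbors and a Leiden resolution of 0.5. Myeloid-like cells were clustered again with 1000 genes and 15 components. A cluster was named when at least 3 genes of a list were raised (at least 5 UMIs and 2 times the other cells) and at least 50% of its cells had 2 of them (1 in subclusters). Clusters with a median depth below 0.333 of the library's, and DC-like, monocyte-like and granulocyte-like clusters, also needed a list gene among their 10 leading genes. Shisal2b- and Rhox5-high clusters had both genes at 5 times the myeloid level or more. These naming rules were set after the clusters had been seen, and rebuilt names can differ from those of the study.

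Named genes were the 7 receptors, genes of the related lists with at least 5 UMIs in the T and NK-like or DC-like cells, and the genes most like the receptors. Genes outside this rule are said to be so. With 1 library no test was run, and intervals (exact Poisson, Clopper-Pearson and conditional, 95%) cover counting error only. Alternatives changed each filter, the clustering, the gates, the scaling and the depth. The processing was tested on simulated data. Clustering used leidenalg 0.10.2, igraph 0.11.9 and scikit-learn 1.9.0, intervals scipy 1.17.1, and tables and figures pandas 2.3.3, numpy 2.4.6 and matplotlib 3.10.9, under Python 3.11.15.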

Additional observations from a re-analysis of the deposited data

How the results depend on the processing

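Of 150 alternative values for the summed levels, shares and ratios that lead the report, 134 stayed within the counting interval of the reported value. The order of NK-like over Cd8 T cells held in all 16 alternatives that gave the ratio. That of DC-like over other T cells turned with no mitochondrial limit, with at least 500 genes, with doublets kept and with the stricter NK gate. It also turned when DC-like cells were picked by their own DC genes, at 352 CPM against 369 in other T cells. The summed level ranged from 3038 to 3167 CPM in NK-like cells, and the ratio of NK-like to Cd8 T cells from 1.43 to 1.61. In Cd8 T cells it was 1934 CPM with doublets kept. In other T cells it was 981 CPM when NK-like cells were allowed no UMI of the T cell genes. In DC-like cells it was 147 CPM with no mitochondrial limit, 149 with at least 500 genes, 159 with doublets kept and 352 when cells were picked by their own DC genes, and no cluster met the DC list at a mitochondrial limit of 10%, with 3000 variable genes or at a resolution of 0.3. In other myeloid-like cells it was 34.5 CPM as a mean over cells and 35.8 with DC-like cells picked by cell. The share of Cd8 T cells with several receptors was 44.4% at 1000 UMIs and 60% at 2000 UMIs per cell. That of NK-like cells was 100% at a mitochondrial limit of 10%, with at least 500 genes, at a resolution of 0.8 and in cells with at least 1000 UMIs, each of which left out the shallowest cell, and 66.7% at 1000 UMIs per cell. Among Klrc1 cells the share with Klrd1 was 58.8% at 1000 UMIs and 71.4% at 2000. Of the values of single receptors, 308 stayed within their interval and 18 did not.

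DC-like cells picked by cell, names from marker lists alone and cells free of lymphocyte UMIs were alternatives chosen after seeing the data. No paired analysis was possible because there is 1 library, and no replicate was there to leave out. Levels of NK-like cells rest on 13 cells and those of DC-like cells on 37.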

Other observations

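Klra4, a Ly49 gene next to Klra8, had most of its UMIs outside the lymphocytes. The Shisal2b- and Rhox5-high cells held 13760 UMIs of Klra4 in 1403 of 1839 cells, 179 CPM (176 to 183), against 233 (169 to 314) in NK-like cells and 10.8 (9.20 to 12.6) in other myeloid-like cells. The ratio of NK-like to Shisal2b- and Rhox5-high cells of 1.30 (0.940 to 1.75) included 1. All 3 of their clusters carried it, at 214, 89.5 and 152 CPM, and 12.9% of the cells had a UMI after thinning to 1000. Klra8, which is 85.1% identical to Klra4 over the 249 bases compared upstream of their start sites, had 3 UMIs in the same cells, and no 90-base window at the end of the Klra4 transcript was shared with another gene. What these counts stem from was not tested.

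Other members of the family were found in myeloid cells. Klra2 had 2315 UMIs in 993 of 1529 other myeloid-like cells, 152 CPM (146 to 159), against 2 UMIs in DC-like and 1 in T and NK-like cells, and Klra17 had 66 and no UMI in either. Both were chosen after their values were seen. Klra2 was found in all 6 clusters of the other myeloid-like cells, at 212 CPM (198 to 226) in cluster 0, 185 (165 to 208) in cluster 3 and 100.3 (89.9 to 111) in the Mmp12-high cluster 2.

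Ligands of NKG2D, the Klrk1 product, were counted in the Shisal2b- and Rhox5-high cells. Ulbp1, which encodes MULT1, had 1313 UMIs in 724 cells, 17.1 CPM (16.2 to 18.1), 2.0 times the level of other myeloid-like cells (1.67 to 2.42). Raet1e, chosen after its values were seen, had 544 UMIs, 7.10 CPM (6.51 to 7.72), 3.60 times (2.49 to 5.38). Of 9 listed ligand genes, 5 were in the table. H2-T23, which encodes the ligand of the Klrd1 and Klrc1 pair, was at 77.0 CPM (75.0 to 79.0) there, 0.178 times the level of other myeloid-like cells (0.172 to 0.185), and at 440.1 (378 to 510.0) in DC-like and 492 (423 to 569.7) in Cd8 T cells.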
